A study of Mus musculus with 24 samples.

Results

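Sensors of foreign or misplaced nucleic acid, and the adaptors they signal through, were followed as transcripts in brain endothelial cells and microglia. The 10 genes were chosen by name, but with earlier results of these data known. All of them had a row among the 20555 genes of each deposited table: Zbp1, Ifih1, Ddx58, Dhx58, Mavs, Cgas, Sting1, Tlr3, Tlr7 and Tlr9. The cells came from mouse brain slices given phosphate-buffered saline (PBS) or exosomes, small vesicles that cells release, at 5 µg per slice for 2 days. The exosomes were stained with PKH67, a green membrane dye, and were labelled wild type (WT), knock-out 1 (KO1) or knock-out 2 (KO2). The series title concerns CEMIP, a hyaluronan-binding protein carried by tumour exosomes; the labels name neither the gene knocked out nor the cells that made the exosomes, and no library here checks the knockout. Endothelial cells were sorted as CD45- CD31+ and microglia as CD45+ with low CD11b and low CD49d, and the labels call every group exosome-positive, so the gate used for the PBS slices is unclear. Genotype and age of the mice are not stated in the labels.

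The endothelial table held 10 libraries: 3 with PBS (letters A, B and C), 2 with WT (A and B), 3 with KO1 (all letters) and 2 with KO2 (B and C). There were 11 microglia libraries, 2 with PBS (A and B) and 3 each with WT, KO1 and KO2. The other 3 labelled samples were not analysed here. The labels do not say whether a letter stands for an animal, a culture or a preparation, so p-values rest on the spread of these libraries alone, and that spread may be technical. Values are normalised counts recovered from the deposited log2 values, and differences and tests are on the deposited log2 scale, where changes of weakly expressed genes are compressed. The endothelial libraries held an estimated 18.3 to 35.5 M reads each, and those of microglia 21.8 to 44.7 M, so a count of 0 allows up to 3 reads, or 1.86 to 4.59 normalised counts.

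Cells detect viral or stray nucleic acid in several compartments. In the cytosol, RIG-I (Ddx58) and MDA5 (Ifih1) bind double-stranded or otherwise unusual RNA and signal through MAVS on mitochondria, while LGP2 (Dhx58), a relative that lacks the signalling domains, tunes them. ZBP1 binds Z-form nucleic acid and can engage RIPK3 and the necroptosis effector MLKL. cGAS binds double-stranded DNA and makes a cyclic dinucleotide that activates STING (Sting1), and in endosomes TLR3 reads double-stranded RNA, TLR7 single-stranded RNA and TLR9 unmethylated CpG DNA. These routes lead to type I interferon, which in turn induces several of the sensors, Zbp1, Ifih1, Ddx58 and Dhx58 among them; microglia are a main site of such sensing in brain.

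The promoters of the paired cytosolic RNA helicases are shown because both hold the core of an interferon-stimulated response element near the start site. The reference promoter table (RefSeq, GRCm38.p6) spans 250 bases before to 50 bases after each start. Windows of 6 of the 10 genes were searched: Ifih1, Ddx58, Mavs, Cgas, Tlr3 and Tlr9. The core searched for, GAAA and a second GAAA with any 2 bases between them, on either strand, is in capitals. It begins 33 bases into the Ifih1 transcript (window chr2:62646206-62646505, minus strand) and 3 bases into the Ddx58 transcript (window chr4:40239776-40240075, minus strand, where the match is on the opposite strand).
Ifih1: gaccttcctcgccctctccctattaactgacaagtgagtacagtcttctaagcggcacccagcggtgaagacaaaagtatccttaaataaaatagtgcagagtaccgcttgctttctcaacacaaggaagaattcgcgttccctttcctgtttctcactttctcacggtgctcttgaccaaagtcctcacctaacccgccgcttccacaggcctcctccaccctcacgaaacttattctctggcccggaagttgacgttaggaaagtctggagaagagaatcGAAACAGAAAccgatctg
Ddx58: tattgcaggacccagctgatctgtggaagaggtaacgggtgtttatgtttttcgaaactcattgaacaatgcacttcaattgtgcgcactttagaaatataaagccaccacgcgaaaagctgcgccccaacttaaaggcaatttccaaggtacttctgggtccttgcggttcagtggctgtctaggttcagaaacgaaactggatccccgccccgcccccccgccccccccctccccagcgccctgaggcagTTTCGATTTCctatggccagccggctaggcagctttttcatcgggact
The windows of Mavs, Cgas, Tlr3 and Tlr9 held no such core. The Tlr3 window (chr8:45410331-45410630, minus strand) belongs to a start inside the gene, which runs to 45411075. The sequence at that outer end was not searched. Of 32851 promoter windows of that length, 3.44% held the core. The palindromic element TTCNNNGAA, bound by STAT dimers, was in none of the 6 windows and in 8.3% of all windows. A match is a stretch of letters, not a measured binding site.

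Some libraries stood apart in cell type markers or in genes listed near 0, and what this means for the sensor values was not tested. The 8 endothelial markers together held 201608 to 259070 normalised counts in the endothelial libraries, with at most 1 of them at 0. The 10 microglial markers held 29487 to 40454 in the microglia libraries, with at most 2 at 0. The 5 endothelial exosome libraries of letters A and B also carried 201409 to 359181 normalised counts of 10 choroid plexus and ependymal markers. With PBS the same markers held 965 to 7357, in KO1 C 6727 and in KO2 C 22843. These sums are mostly Ttr and Enpp2, which reached 276900 and 75380 normalised counts, while no other marker of the list exceeded the 4566 of Kl. Kcnj13 was at 0 in 6 of the 10 endothelial libraries and Foxj1 in 7, and Ccdc153 did not exceed 2.74. Many genes lay near 0 in single libraries: of 6589 endothelial genes averaging at least 500 normalised counts, 14.22% were under 5 in at least 1 library, from 6 genes in PBS B to 349 in WT A, against 3.20% of 6130 genes in microglia. Those limits were chosen after the values were seen. A member listed at or near 0 in 1 library is therefore given as listed. Genes averaging at least 20 normalised counts were tested, and endothelial Tlr9 did not reach that. Endothelial Tlr7 and microglial Tlr3 and Tlr9 reached it through 1 high library each, with means of 1.02, 4.20 and 13.1 normalised counts without it. They are described by their values and left out of counts over sensors, a choice made after the values were seen, which leaves 8 sensors in each cell type. In bulk samples, fewer cells of a type and less RNA per cell cannot be told apart.

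With PBS, the sensors were ordered differently in the 2 cell types. Per kilobase of exon, Ddx58 led in endothelial cells at 699 ± 153 normalised counts per kilobase (SD, n = 3), above every library of Mavs at 242 ± 98.03. Sting1, Tlr3, Cgas, Zbp1, Dhx58 and Ifih1 followed from 218 down to 17.9, and each overlapped its neighbour in that order. Tlr7 and Tlr9 were listed at 0 in all 3 PBS libraries. In microglia Tlr7 led at 921 ± 584 normalised counts per kilobase (SD, n = 2), followed by Dhx58 at 492 ± 40.1, Mavs at 408 ± 269 and Ddx58 at 296 ± 2.26, each overlapping its neighbour. Zbp1 at 168 ± 3.72 lay below every Ddx58 library and above every Cgas library. Cgas, Sting1 and Ifih1 followed from 99.2 to 30.9 normalised counts per kilobase, with Tlr9 at 0 and 1.502 and Tlr3 at 0 in both libraries. The tables were normalised separately, so levels of 1 gene are not compared between cell types.

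Zbp1 (gene 58203; GRCm38.p6 chromosome 2, 173206612 to 173218959, minus strand) was the one sensor that lay above PBS in every exosome library of microglia, which held for 1.95% of the 10695 genes tested. In microglia, the PBS libraries A and B held 358 and 369 normalised counts. WT libraries A, B and C held 5063, 2334 and 773. KO1 libraries held 2967, 905 and 991, and KO2 libraries 4902, 2123 and 897. Within each exosome group, the A library was the highest. In endothelial cells, Zbp1 stood at 234, 158 and 111 with PBS A, B and C and at 3461 and 1046 with WT A and B. KO1 A and B stood at 3149 and 589, KO2 B held 1761, and both C libraries, KO1 C and KO2 C, were listed at 0. The 5 exosome libraries of letters A and B thus lay above all PBS libraries, while the 2 of letter C lay below them.

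**Figure D1:**
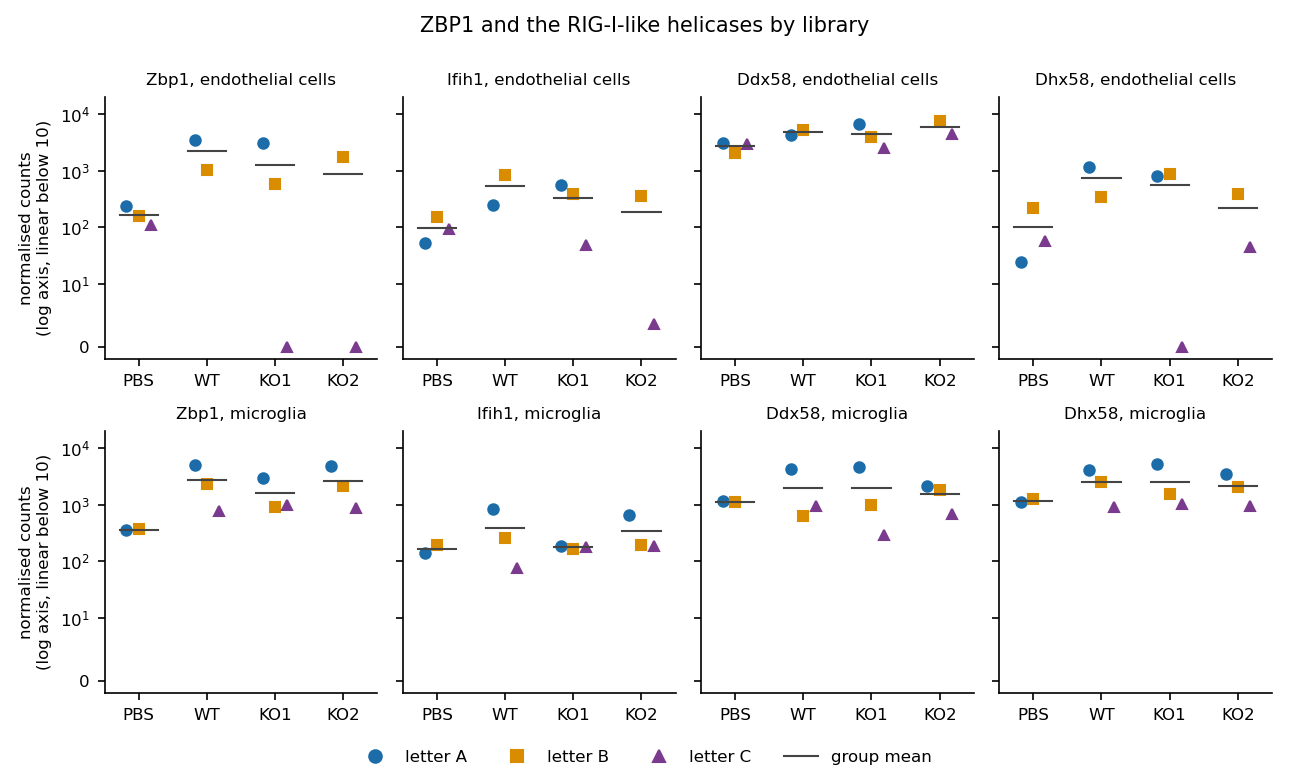
Normalised counts of Zbp1, Ifih1, Ddx58 and Dhx58 by group, in endothelial cells (top) and microglia (bottom), on an axis that is logarithmic above 10 and linear below; each point is 1 library, its colour and shape the letter, and each line the mean of the group. Microglial Zbp1 lies at 773 or more in all 9 exosome libraries and at 369 or less in both PBS libraries, and the endothelial C libraries of KO1 and KO2 lie at or near 0 for Zbp1.

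Against this spread the limma test did not call Zbp1. WT minus PBS was 0.91 on the deposited log2 scale in microglia (SE 0.40, adjusted p = 0.926) and 0.47 in endothelial cells (SE 0.22, adjusted p = 0.523). The mean of the 3 exosome groups minus PBS was 0.79 in microglia (SE 0.34, adjusted p = 0.869) and 0.26 in endothelial cells (SE 0.17, adjusted p = 0.848). Over the alternatives, the adjusted p of the microglial WT difference ranged from 0.0917 to 0.999. The lowest came from limma with the shared letters fitted as a replicate block, where the difference was 1.16. In that fit the microglial exosome mean minus PBS was 1.04 (adjusted p = 0.0589). Without WT A, the library with the highest Zbp1, the microglial WT difference was 0.56, and the endothelial one without its WT A was 0.28. Without the C libraries, the endothelial exosome mean minus PBS was 0.41. The authors' deposited table for microglia lists Zbp1 with an adjusted p = 3.86e-07 in a likelihood ratio test, 25th by p of 238 genes, with a mean of 1972 normalised counts. None of the other 9 sensors is in that table, and none of the 10 is in the authors' deposited table for endothelial cells, which lists 362 genes.

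The RNA helicases stood higher in the endothelial exosome libraries of letters A and B. Ifih1, which encodes MDA5 (gene 71586; chromosome 2, 62595618 to 62646255), held 51.9, 151 and 91.7 normalised counts with PBS A, B and C and 252 and 842 with WT A and B. The KO1 libraries held 549, 391.5 and 49.0, and the KO2 libraries 361 and 3.60. Both C exosome libraries thus lay below the 3 PBS libraries, and the 5 others above them. Dhx58, which encodes LGP2 (gene 80861; chromosome 11, 100694884 to 100704271), held 24.6, 221 and 57.3 with PBS and 1155 and 337 with WT A and B. The KO1 libraries held 797.5, 873.5 and 0 normalised counts of Dhx58, and the KO2 libraries 391 and 44.0. The A and B exosome libraries again lay above all PBS libraries, with KO1 C below them and KO2 C within their range. Its exons overlap those of the antisense gene Dhx58os, and no source used here says whether reads were counted by strand.

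Ddx58, which encodes RIG-I (gene 230073; chromosome 4, 40203777 to 40239825), was the most abundant sensor per kilobase in endothelial cells. It held 3135, 2033 and 2957 normalised counts with PBS, 4345 and 5204 with WT, 6818, 4015 and 2492 with KO1, and 7637 and 4406 with KO2. The exosome libraries lay above all PBS libraries in 6 of 7 cases, and KO1 C lay within their range. The exosome mean minus PBS was 0.26 on the deposited log2 scale (SE 0.099, adjusted p = 0.613), the smallest unadjusted p of any endothelial sensor in that comparison.

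In endothelial cells, every WT library exceeded every PBS library for 4 of the 8 sensors, Zbp1, Ifih1, Ddx58 and Dhx58, and the same held for 14.7% of the 11310 genes tested. With the letters A and B alone, the same 4 sensors lay higher in all 5 exosome libraries than in both PBS libraries, against 5.14% of all genes. With the C libraries included, no sensor did so (1.17% of all genes). No endothelial sensor lay below PBS in every WT library (18.7% of all genes), in every exosome library (1.55%) or in every A and B exosome library (5.45%). The 5 exosome libraries of letters A and B are those with 201409 or more normalised counts of choroid plexus and ependymal markers. They also held the most of 8 fibroblast and meningeal markers, 1857 to 7727 normalised counts, against 593 to 1501 with PBS, 166 in KO1 C and 1782 in KO2 C. Of those 8 markers, Slc6a13 and Ogn were at 0 in all 10 libraries, and Dcn was above 0 in each. The part of either kind of cell in the sensor transcripts was not tested.

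In microglia the helicases stood highest in the A library of each exosome group. Dhx58 held 1118 and 1255 normalised counts with PBS and 4075, 2556 and 935 with WT A, B and C. KO1 held 5187, 1533 and 1017 normalised counts of Dhx58 and KO2 held 3468, 2037 and 949. The C libraries lay below both PBS libraries and the A and B libraries above them. The same was so of the summed markers of border-associated macrophages, which held 2080 and 1534 normalised counts with PBS, 2179 to 3124 in the exosome A libraries, 5214 to 6156 in B and 702 to 1157 in C. Of these 8 markers, Pf4 and Ms4a7 were above 0 in all 11 libraries and Cd163 and Cbr2 in none, and 3 to 6 were at 0 in each library. The part of such cells in the Dhx58 values was not tested. Ddx58 held 1152 and 1140 with PBS, then 4309, 634 and 949 with WT, 4719, 984 and 297 with KO1, and 2128, 1841 and 678 with KO2. Its A libraries stood highest in each exosome group, and 5 of the 6 others lay below PBS. Ifih1 held 142 and 196 with PBS, 844, 255 and 75.6 with WT, 188, 165 and 179 with KO1, and 651, 192 and 189 with KO2, so that WT A and KO2 A stood apart from the rest. WT minus PBS was 0.44 for Dhx58 (SE 0.38, adjusted p = 0.960), 0.22 for Ddx58 (SE 0.44, adjusted p = 0.991) and 0.13 for Ifih1 (SE 0.16, adjusted p = 0.967). For Dhx58 that difference was 0.20 without WT A and 0.72 without WT C, and over all alternatives its adjusted p ranged from 0.308 to 1. In microglia, choroid plexus and ependymal markers summed to 537, 520 and 73 in the 3 exosome A libraries and to 8664 and 690 with PBS.

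MAVS is the adaptor that RIG-I and MDA5 share. Endothelial Mavs (gene 228607; chromosome 2, 131234063 to 131248025) held 592, 555 and 1098 normalised counts with PBS and 1044 and 1048 with WT. The KO1 libraries held 1.09, 1083 and 759, and the KO2 libraries 2113 and 1.90. KO1 A and KO2 C lay near 0, KO2 B was the highest, and the groups overlapped. In microglia Mavs ranged from 671 to 1851 normalised counts with PBS, 646 to 1594 with WT, 684 to 3865 with KO1 and 1261 to 1840 with KO2, and all groups overlapped. WT minus PBS was 0.08 in endothelial cells (95% interval -0.31 to 0.46, adjusted p = 0.926) and -0.04 in microglia (95% interval -0.67 to 0.58, adjusted p = 1).

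Neither gene of the DNA-sensing pair was called. Endothelial Cgas (gene 214763; chromosome 9, 78430518 to 78443237) held 405, 351 and 214.5 normalised counts with PBS, 918 and 172 with WT, 772, 554 and 376 with KO1, and 304 and 186 with KO2. WT A and B thus lay on either side of PBS. Microglial Cgas held 513.5 and 296 with PBS, 797, 310 and 636 with WT, 803, 497 and 28.5 with KO1, and 235, 844 and 279 with KO2. Every exosome group overlapped PBS in both cell types, and WT minus PBS was 0.06 in endothelial cells (SE 0.090) and 0.10 in microglia (SE 0.18). Exons of Cgas overlap those of the predicted gene Gm8093, so its counts are uncertain.

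Sting1 (gene 72512; chromosome 18, 35733678 to 35740554), the adaptor that cGAS signals to, varied widely in endothelial cells. It held 371.5, 833 and 300.2 normalised counts with PBS, 332 and 1076 with WT, 120.3, 1183 and 23.5 with KO1, and 437 and 182 with KO2, with the B library high in every group. Microglial Sting1 was listed at 0 in PBS A and at 339 in PBS B. WT held 507, 413 and 506 normalised counts, KO1 606, 457 and 295, and KO2 650.1, 148 and 282. The 3 WT libraries lay above both PBS libraries, while KO1 and KO2 overlapped PBS B. WT minus PBS was 0.48 (SE 0.19, adjusted p = 0.891), and it was 0.09 without PBS A. Every WT library exceeded every PBS library for 2 of 8 sensors in microglia, Zbp1 and Sting1, against 8.87% of all genes. With the letters A and B alone, Zbp1 and Dhx58 lay higher in all exosome libraries than in both PBS libraries, against 4.53% of all genes. Those are also the libraries with more border-associated macrophage markers than either PBS library. No microglial sensor lay below PBS in every WT library (9.56% of all genes), in every exosome library (2.25%) or in every A and B exosome library (4.66%).

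Tlr7, the receptor for single-stranded RNA (gene 170743; chromosome X, 167303380 to 167330574), held 5288 and 2013 normalised counts in microglia with PBS, 4450, 2105 and 2327 with WT, 3302, 2602 and 1628 with KO1, and 4095, 3267 and 2440 with KO2. All groups overlapped, and WT minus PBS was -0.16 (95% interval -0.77 to 0.45, adjusted p = 0.976). In endothelial cells Tlr7 was listed at 0 in the 3 PBS libraries and at no more than 3.445 in 6 of 7 exosome libraries, but at 499 in KO2 B. That library also held 2425 normalised counts of 10 microglial markers, against 780 to 1028 with PBS. WT B held 3043 normalised counts of microglial markers with Tlr7 at 3.445. The part of such cells in the Tlr7 value was not tested.

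Tlr3, the receptor for double-stranded RNA (gene 142980; chromosome 8, 45395665 to 45411075), was above 0 in all 10 endothelial libraries. It held 948, 366 and 707 normalised counts with PBS, 2014 and 622 with WT, 2448, 520 and 2488 with KO1, and 1203 and 0.90 with KO2. WT and KO1 each reached from within the PBS range to above it, and WT minus PBS was 0.13 (SE 0.16, adjusted p = 0.822). In microglia Tlr3 was listed at 0 in 9 of 11 libraries, at 940 in WT A and at 42.0 in KO2 C. Its exons overlap those of the predicted gene Gm45542. Tlr9, the CpG DNA receptor (gene 81897; chromosome 9, 106222598 to 106226876), was listed at 0 in all 10 endothelial libraries and so was not tested there.

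Microglial Tlr9 was low. PBS libraries held 5.22 and 0 normalised counts, and WT libraries 1.00, 0 and 0.78. KO1 libraries held 221, 13.2 and 12.02, and KO2 libraries 28.04, 68.3 and 2.49. The knockout libraries lay above the WT libraries, and KO1 A set the mean that let the gene be tested, so nothing is read from its test. The lowest knockout value, 2.49 in KO2 C, is within the 1.86 to 3.79 normalised counts that 3 reads amount to in a microglia library.

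**Figure D2:**
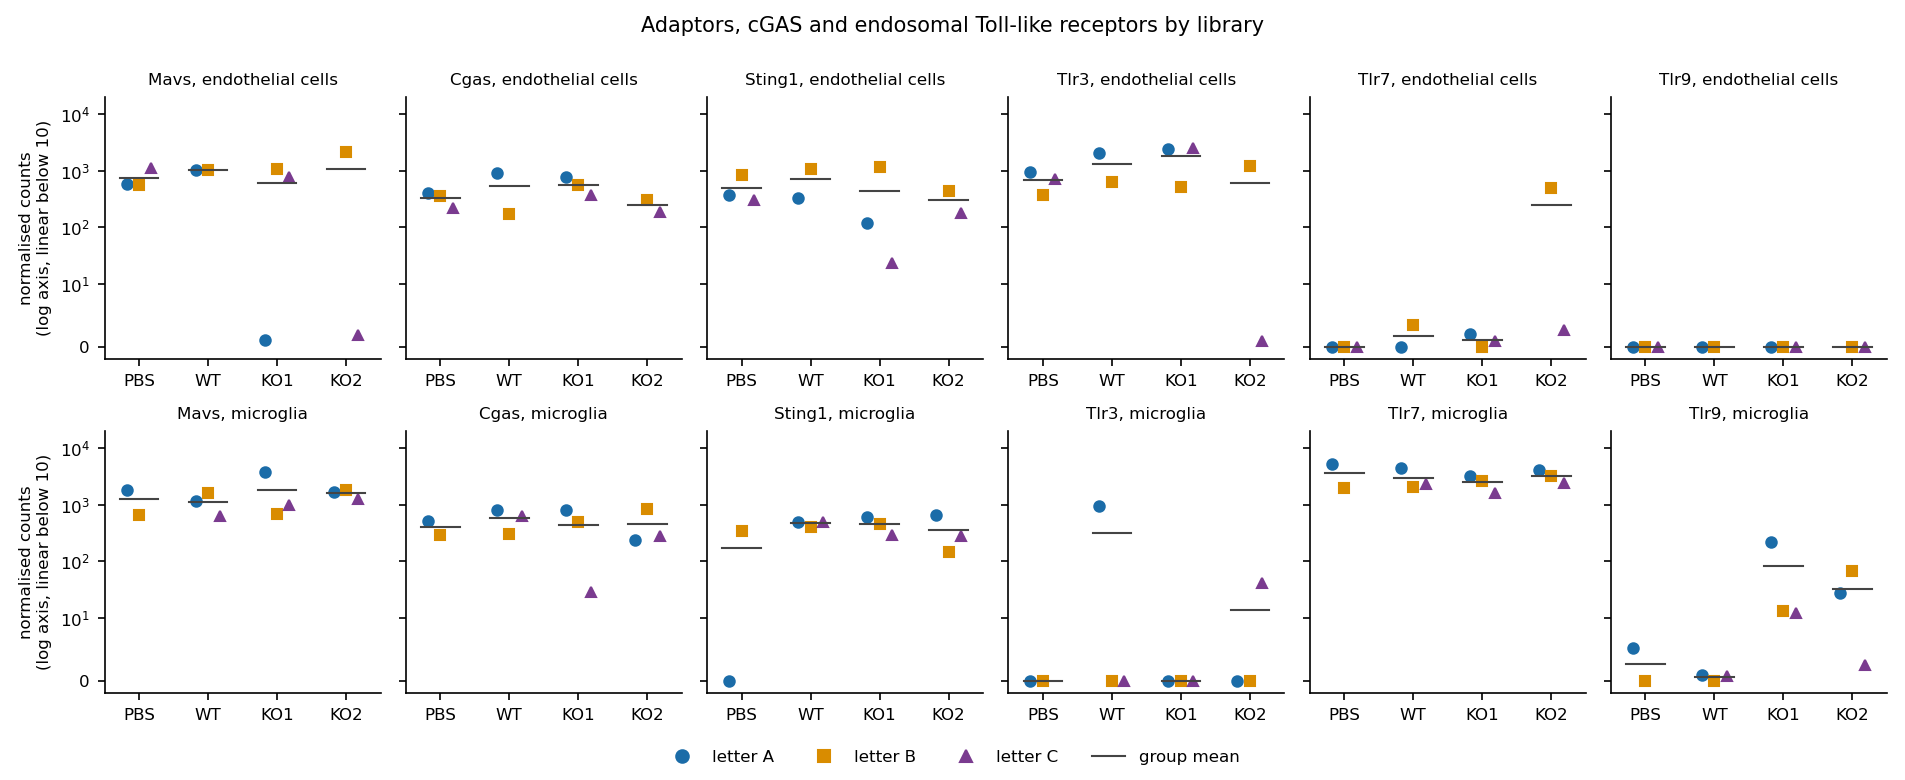
Normalised counts of Mavs, Cgas, Sting1, Tlr3, Tlr7 and Tlr9 by group, in endothelial cells (top) and microglia (bottom), on an axis that is logarithmic above 10 and linear below; each point is 1 library, its colour and shape the letter, and each line the mean of the group. Tlr7 lies at or above 1628 in every microglia library and Tlr9 at 0 in every endothelial library, and single libraries lie near 0 for Mavs, Sting1 and Tlr3.

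Across the sensors, no comparison passed the threshold in the main fit, which does not take account of what libraries of a letter share. In WT minus PBS, 0 of 8 sensors in either cell type had an adjusted p under 0.05 in limma, as did 0% of all genes tested in each. At an unadjusted p under 0.05, 0 of 8 endothelial sensors stood against 9.55% of all genes, and 2 of 8 microglial sensors, Zbp1 and Sting1, against 5.25%. The mean of each of the 8 endothelial sensors was higher with WT than with PBS, with a median difference of 0.16, while the median of all genes was -0.01 and 45.4% of them were higher. In microglia 6 of 8 were higher, with a median of 0.18, while the median of all genes was 0 and 50.2% of them were higher. For the exosome mean minus PBS, 6 of 8 endothelial and 7 of 8 microglial sensors were higher and none was called, beside 0% and 0.00935% of all genes. At an unadjusted p under 0.05 stood 1 of 8 (Ddx58) and 2 of 8 (Zbp1 and Sting1), beside 7.4% and 5.69% of all genes. An F test of any difference among the 4 groups called no sensor, beside 0% of all genes in both cell types, and none had an unadjusted p under 0.05, beside 8.02% and 3.94%. Another limma fit took the letters as a replicate block. Its unadjusted p in microglial WT minus PBS was 0.00029 for Zbp1, 0.0060 for Dhx58 and 0.040 for Sting1. After adjustment these were 0.0917, 0.308 and 0.559. In endothelial cells the smallest unadjusted p of that fit in WT minus PBS was 0.0666, for Zbp1. The share of all genes at an unadjusted p under 0.05 in that fit is not given here.

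**Figure D3:**
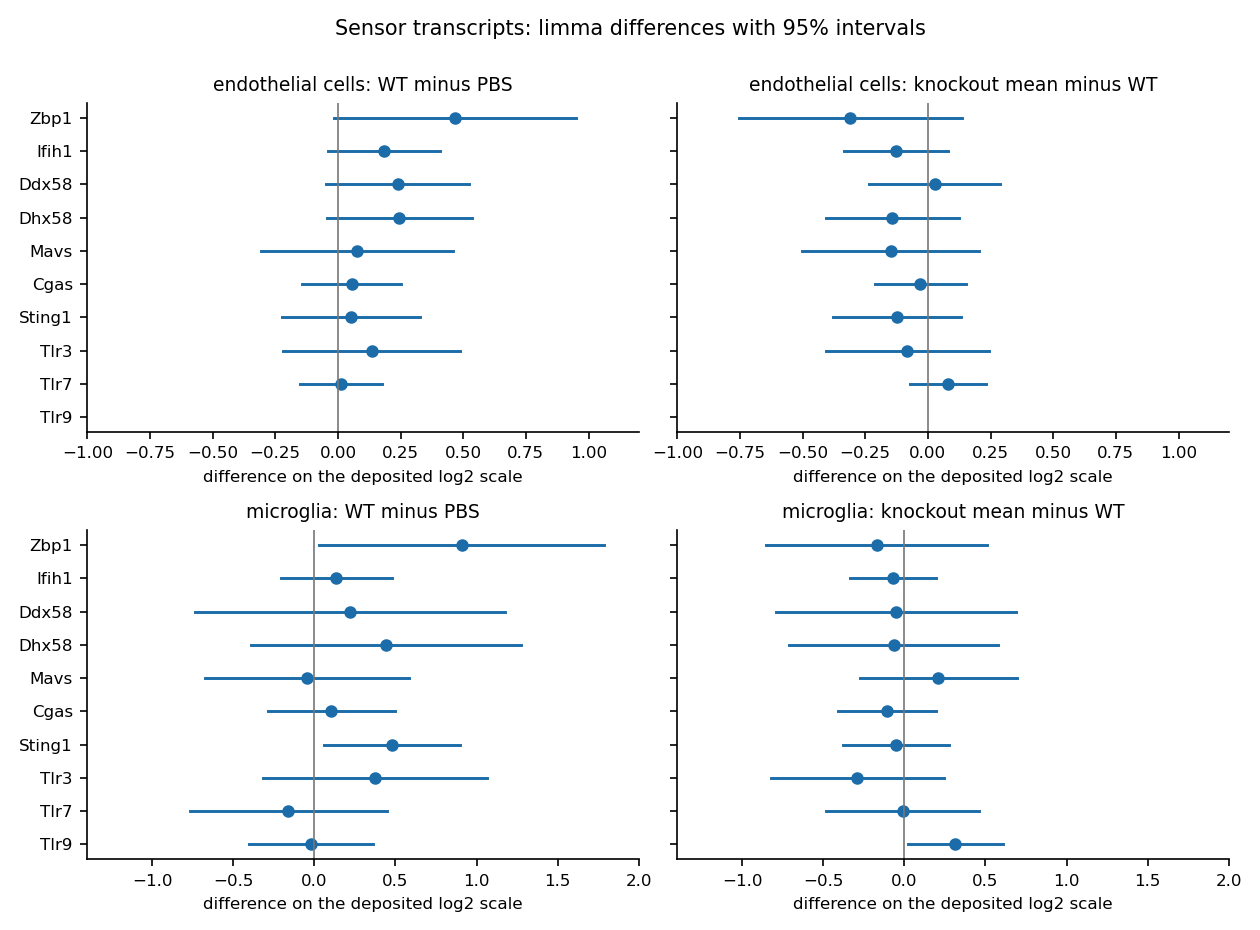
Differences on the deposited log2 scale with 95% intervals from limma for each sensor, WT minus PBS (left) and the knockout mean minus WT (right), in endothelial cells (top) and microglia (bottom); endothelial Tlr9 has no value. Intervals lie off 0 for Zbp1 and Sting1 in microglial WT minus PBS and for Tlr9 in the microglial knockout comparison, where 1 library decides whether the gene is tested; none of these differences passed after adjustment.

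The comparison of the knockout groups, taken as the mean of KO1 and KO2, with WT asks whether the sensors differ with the genotype behind the exosomes. In endothelial cells 1 of 8 sensors was higher and 7 were lower, with a median difference of -0.13 beside 0.01 for all genes, and none was called, beside 0.00884% of all genes. Zbp1 differed by -0.31 (95% interval -0.76 to 0.14, adjusted p = 0.703). The endothelial WT group has no C library, and the knockout C libraries are where Zbp1 was listed at 0. Without the C libraries that difference was -0.06, and those of Ifih1 and Dhx58 were -0.03 and -0.03 in place of -0.13 and -0.14. In microglia 1 of 8 sensors was higher and 7 were lower, with a median of -0.06 beside -0.002 for all genes, and none was called, beside 0% of all genes. Zbp1 differed by -0.17 (95% interval -0.85 to 0.51) and Dhx58 by -0.07 (95% interval -0.71 to 0.58). At an unadjusted p under 0.05 stood 0 of 8 sensors in either cell type, beside 8.67% of endothelial and 3.32% of microglial genes. None of the 8 endothelial sensors had all knockout libraries above all WT libraries (4.23% of all genes) or below them (4.54%), and none of the 8 microglial ones had them above (0.86%) or below (0.926%). KO1 minus KO2 also gave no call, beside 0% of all genes in each cell type, and no sensor had an unadjusted p under 0.05, beside 5.93% of endothelial and 3.38% of microglial genes.

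Within letters A and B, every exosome library held more Zbp1 than the PBS library of its letter, in both cell types. In microglia of letter A the ratio of normalised counts was 14.15 with WT, 8.29 with KO1 and 13.7 with KO2. In letter B the same ratios were 6.32, 2.45 and 5.75. In endothelial cells of letter A they were 14.8 with WT and 13.5 with KO1, and in letter B 6.63, 3.73 and 11.2 with WT, KO1 and KO2. Dhx58 was also higher in each of these pairs, by 1.53 to 47.0 times in endothelial cells and 1.22 to 4.64 times in microglia. In letter C of the endothelial cells Zbp1 was listed at 0 in both exosome libraries and at 111 with PBS. Between exosomes, Zbp1 with KO1 was 0.59 times that with WT in microglia of letter A, 0.39 times in B and 1.28 times in C, and with KO2 0.97, 0.91 and 1.16 times. Endothelial KO1 over WT was 0.91 in A and 0.56 in B, and KO2 over WT was 1.68 in B.

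**Figure D4:**
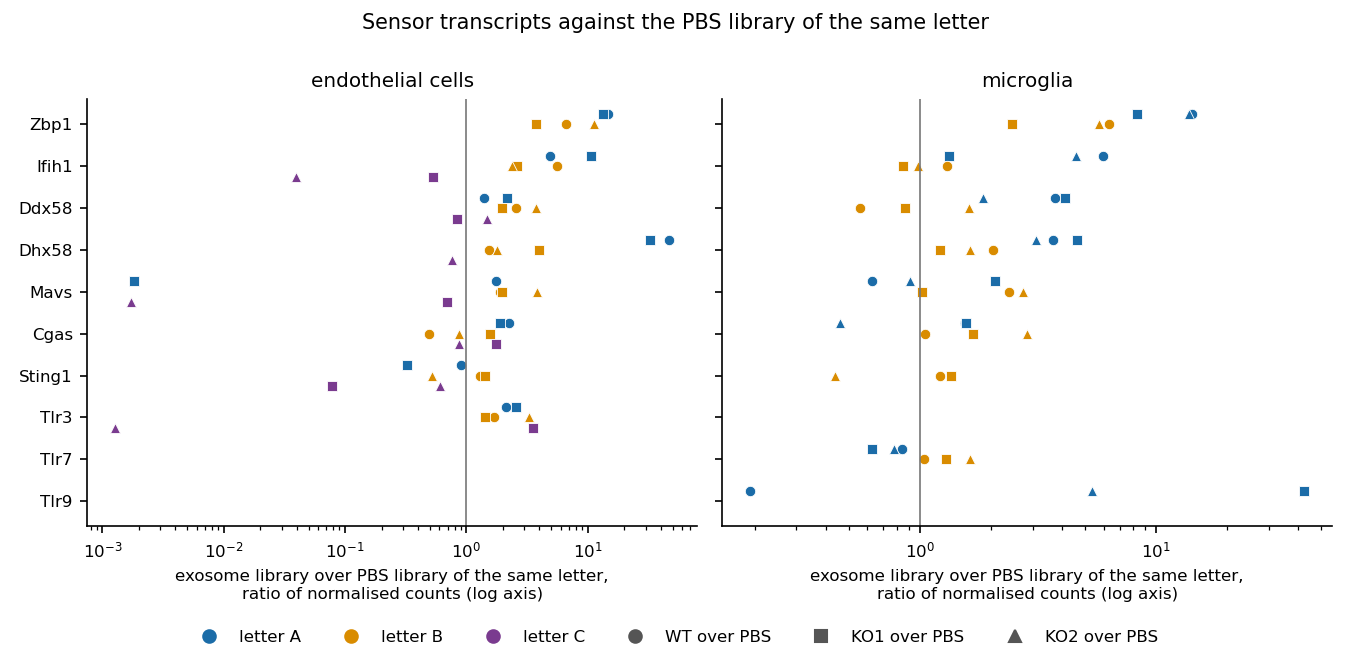
Ratio of normalised counts in each exosome library to the PBS library of the same letter, for each sensor, in endothelial cells (left) and microglia (right), on a log axis; colour is the letter, shape the exosome, and a pair with a 0 on either side has no point. Zbp1 lies between 2.45 and 14.8 in every pair drawn, and the endothelial C pairs lie mostly below 1.

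Over the 8 sensors above 0 in both libraries of a pair, the median ratio to PBS of the same letter lay between 1.80 and 2.84 in the endothelial A and B pairs. It was 0.77 over 6 such sensors for KO1 C and 0.61 over 7 for KO2 C, medians that leave out Zbp1, at 0 in both, and Dhx58, at 0 in KO1 C. In microglia it lay between 1.26 and 1.62 in letter B, over the same 8 sensors that are counted elsewhere. In letter A it lay between 2.475 and 3.09, but over another set of 8. Sting1, at 0 in PBS A, drops out there, and Tlr9, at 5.22 in PBS A, comes in, although it is left out of counts over sensors. The letter A medians without Tlr9 were not computed, so the medians of the 2 letters are not compared. Microglial PBS A and B lay close together for Zbp1, Ddx58 and Dhx58, while each exosome's A library held more of these 3 transcripts than its B library. What distinguishes the letters was not tested.

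Among other genes of these pathways, from lists fixed with earlier results of these data known, none passed the test in either cell type. The list with the largest median difference was that of interferon-induced outputs, of which 15 of 15 were higher with WT than with PBS in both cell types. Their median difference was 0.64 in endothelial cells and 0.92 in microglia, beside -0.01 and 0 for all genes. In endothelial cells 11 of the 15 had an unadjusted p under 0.05 (9.55% of all genes did), and in microglia 0 did (5.25%). Bst2, which tethers budding virus, held 1803, 1834 and 1649 normalised counts with endothelial PBS, 13140 and 7257 with WT. In the C libraries of KO1 and KO2 it held 2441 and 2376. Its WT minus PBS difference was 0.79 (SE 0.20, adjusted p = 0.314). Isg15, a ubiquitin-like modifier, held 3850 and 6594 with microglial PBS and 24910, 11070 and 4288 with WT A, B and C.

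Microglial Cxcl10, a chemokine, held 1115 and 1321 with PBS and 11250, 6325 and 1997 with WT (difference 1.28, adjusted p = 0.935). Endothelial Gbp2, a guanylate-binding protein, held 495 to 688 with PBS and 7154 and 2093 with WT (difference 0.56, adjusted p = 0.314).

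Among interferons, their receptors and signalling genes, 8 of 8 tested were higher with WT than with PBS in endothelial cells and 6 of 9 in microglia. Ifnb1, which encodes interferon beta, was listed at 0 in every endothelial library and in both microglial PBS libraries. In microglia it held 620, 359 and 129 normalised counts with WT A, B and C, 331, 571 and 24.3 with KO1, and 952, 1047 and 0 with KO2. It was detected in 8 of 9 exosome libraries and in neither PBS library. WT minus PBS was 0.79 (SE 0.29, adjusted p = 0.891), and the authors' deposited table for microglia lists it. Ifnar1, a subunit of the interferon receptor, held 1922 and 1894 with microglial PBS and 933 to 1636 in the 9 exosome libraries, all below PBS (WT minus PBS -0.23, adjusted p = 0.935). Endothelial Stat2, which carries the interferon signal to the nucleus, held 662 to 2050 with PBS, 6363 and 5004 with WT, 2254, 2327 and 0 with KO1, and 1973 and 1717 with KO2 (WT minus PBS 0.58, adjusted p = 0.384). The authors' deposited table for microglia also lists Irf7, Stat2, Irf9 and 9 of 15 interferon-induced outputs, and the authors' deposited table for endothelial cells lists Irf7 and 8 of 15. Of 6 markers of plasmacytoid dendritic cells, a strong interferon source, Klk1 and Ly6d were at 0 in all 11 microglia libraries, while Cox6a2 held 359 to 2167 normalised counts.

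**Figure D5:**
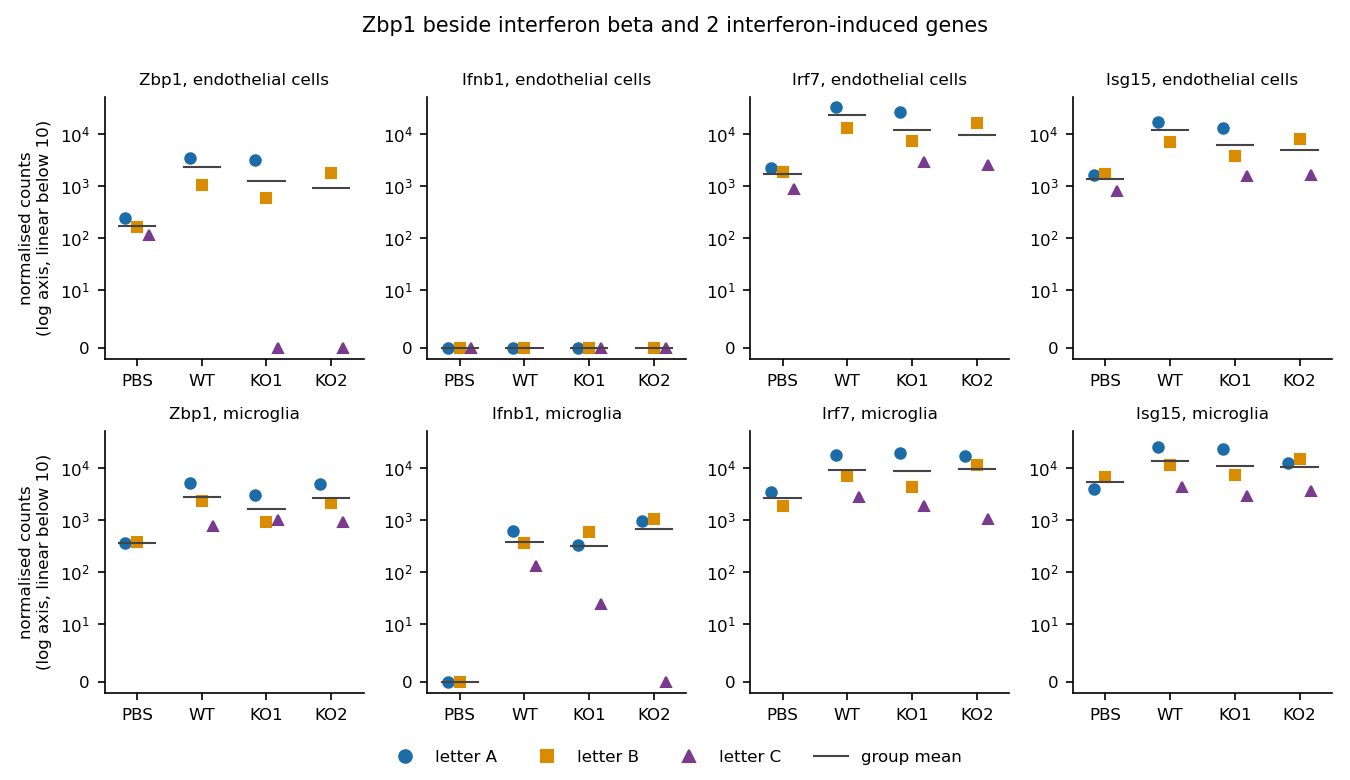
Normalised counts of Zbp1, Ifnb1 (interferon beta), Irf7 and Isg15 by group in endothelial cells (top) and microglia (bottom), on an axis that is logarithmic above 10 and linear below; points are libraries, coloured and shaped by letter, and lines are group means. Ifnb1 lies at 0 in all endothelial and both microglial PBS libraries, and the C libraries lie below the A and B libraries of their exosome group for Irf7 and Isg15.

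Genes that act with ZBP1 were mixed. Of 8 ZBP1 partners and cell death genes, 5 were higher and 3 lower with WT than with PBS in each cell type. Endothelial Mlkl, the membrane-rupturing effector of necroptosis, held 930, 1557 and 1238 normalised counts with PBS, 5762 and 2269 with WT, and 1847 to 2352 with either knockout, above PBS in all 7 exosome libraries. WT minus PBS was 0.37 (SE 0.11, adjusted p = 0.3735). Cflar, which restrains caspase-8, held 1607 to 3268 with endothelial PBS and 366 and 517 with WT (difference -0.37, adjusted p = 0.498). Casp8, the initiator caspase that can cleave RIPK1 and RIPK3, held 1616 and 1324 with microglial PBS and 2218 to 2433 with WT (difference 0.31, adjusted p = 0.891), and 2325 to 3731 with endothelial PBS and 2112 and 1820 with WT (difference -0.15, adjusted p = 0.581). In microglia the kinase Ripk3 held 454 and 1888 with PBS, 3443, 3562 and 1570 with WT, and 185 to 2401 with the knockouts (WT minus PBS 0.63, adjusted p = 0.935). Ripk1, the kinase upstream of it, held 1288 and 654 with PBS and 1433 to 2203 with WT (difference 0.35, adjusted p = 0.915).

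Of the other nucleic acid sensors and effectors, 9 of 14 tested were higher in endothelial cells and 16 of 18 in microglia with WT than with PBS. Endothelial Ifi204, a DNA-binding relative of IFI16, was listed at 1.54, 0 and 0 with PBS and at 754 and 334 with WT (difference 0.32, adjusted p = 0.432). The KO1 libraries held 1109, 183 and 0 normalised counts of Ifi204, and the KO2 libraries 359 and 363. Eif2ak2, which encodes the RNA-dependent kinase PKR, held 186.5, 288 and 228 normalised counts with PBS, 332 and 2041 with WT, and 326 to 1062 with the knockouts, above PBS in all 7 exosome libraries (WT minus PBS 0.24, adjusted p = 0.518). Aim2, an inflammasome DNA sensor, was listed at 45.1 to 139 with PBS and at 0 in 5 of 7 exosome libraries. KO1 B, at 217, lay above all PBS libraries and KO1 C, at 128, within their range. Oasl2, of the oligoadenylate synthetase family, held 142.5 to 370.2 with PBS and 1875 and 1266 with WT. Microglial Zc3hav1, which encodes the antiviral zinc-finger protein ZAP, held 1362 and 2663 with PBS and 3316 to 5075 with WT (difference 0.62, adjusted p = 0.891). The RNA sensor Oas2 was listed at 1.04 and 0 with microglial PBS and at 261, 198 and 85.1 with WT.

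Adaptors, kinases and transcription factors were mixed, with 13 of 22 higher in endothelial cells and 16 of 22 in microglia. Ikbke, an interferon-pathway kinase, held 38.4 to 352 normalised counts with endothelial PBS and 3035 and 476 with WT (difference 0.37, adjusted p = 0.432). Traf3, a ubiquitin ligase of the MAVS and TLR routes, went the other way, with 1079 to 1616 at PBS and 0 and 106 with WT (difference -0.435, adjusted p = 0.333). It held 718 to 1650 in the knockout libraries except KO1 C at 25.4. Of the endothelial libraries, WT A also has the most genes near 0. Microglial Azi2, a TBK1 adaptor, was listed at 0 in PBS A and at 677 in PBS B, and held 764 to 1005 with WT.

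Of the nucleases and restraints on sensing, 11 of 17 tested were higher in endothelial cells and 11 of 18 in microglia. Microglial Adar, which edits double-stranded RNA, held 2415 and 1437 normalised counts with PBS and 5652, 4373 and 2725 with WT (difference 0.66, adjusted p = 0.935). Usp18, which removes ISG15 and dampens interferon signalling, held 691.5 and 318.5 with microglial PBS and 8551, 3051 and 1056 with WT. Tnfaip3, which encodes the ubiquitin editor A20, held 8367 and 11770 with microglial PBS and 17910, 25300 and 12890 with WT (difference 0.82, adjusted p = 0.921). Rnaset2b, an endolysosomal ribonuclease with the near-identical copy Rnaset2a, held 4557 and 4069 with microglial PBS and 2075 to 3273 with WT. Pld4, an endolysosomal exonuclease, held 1489 and 1748 with microglial PBS, 562 to 1422 with WT and 131 to 638 with KO2. The authors' deposited table for microglia lists Adar, Usp18, Rnaset2b, Pld4, Trex1 and Tnfaip3.

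The genes whose deposited log2 values followed each sensor most closely are given as a description, over libraries that share groups and letters. Zbp1 in microglia was closest to Bst2 (Pearson r = 0.957), Ifit3b (0.955) and Usp18 (0.947) over 11 libraries. In the same libraries Dhx58 was closest to Slfn2 (0.979), Ebi3 (0.977) and Gm5796 (0.9765), and Tlr9 to Epsti1 (0.916). Ddx58 in endothelial cells was closest to Igfbp4 (0.957) over 10 libraries, and Tlr3 to Zfp821 (0.955). Ifih1 and Mavs in microglia were closest to Sh3d21 (0.959) and Arrb2 (0.9355). Cgas, Tlr7 and, in endothelial cells, Sting1 had no closer gene than r = 0.852, 0.899 and 0.894.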

How the data were processed

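RNA-seq libraries of sorted endothelial cells and microglia were analysed from 1 deposited table per cell type. Per the submitters' processing notes, the authors used Salmon 0.10.0 and DESeq2 1.18.1 with GRCm38.p6, and FastQC 0.11.7 and Trimmomatic 0.38. The deposited log2 values are variance-stabilised by the authors, per the labels, 1 transform per cell type. The authors' deposited lists of a likelihood ratio test give a mean normalised count (used as a signal value), a p-value and adjusted p, and a statistic and standard error that are read as scores; per the file headers, the contrast behind their log2 fold change is not named. Gene IDs were matched to symbols for 20537 of 20555 genes.

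Normalised counts were recovered by inverting the transform. In endothelial cells the inverse is exact, and the recovered means equal the authors' 362 means (ratio 1). In microglia a monotone curve was drawn through the authors' 238 means and low whole-read steps, with a largest error of 0.104%. With a part of the means held out at a time, the median error was 0.0126% and the largest 7.17%. Library totals were 25.7 to 28.1 M (endothelial) and 27.1 to 29.6 M (microglia) normalised counts. Low values lay within 0.05 of whole reads for 71.8 to 88.6% (endothelial) and 64.7 to 81.4% (microglia), so no count test was run.

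The deposited values were fitted with limma 3.58.1 in R 4.3.3 (mean-variance trend, all libraries of a cell type, Benjamini-Hochberg adjustment over all genes, threshold 0.05). Genes with a mean of at least 20 recovered counts were tested, which left 9 of 10 sensors in endothelial cells and 10 of 10 in microglia; counts over sensors use the 8 that also pass without their highest library. The test was also run on simulated counts drawn around the gene means, with the same setting of spread for all genes. The simulation held no letter effect and no single values set near 0, so it cannot show how the test performs on data like these. Tables used Python 3.11.15, pandas 2.3.3, numpy 2.4.6 and scipy 1.17.1. Intervals are 95% and cover the spread between libraries; limits of 3 reads cover counting error only.

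Groups come from the labels; 3 of 24 labelled samples were not analysed here. The shared letters were not taken to pair samples. All 10 sensors are described. Of each pathway list, up to 3 tested genes with the smallest p on either side in WT minus PBS of each cell type could be named, and part of these are given, picked after their values were seen. Outside that rule, and also picked after, are microglial Isg15 and Irf7 and the genes named for being in the authors' lists. For each sensor the genes most correlated with it were taken from the cell type with the higher recovered level per kilobase, which sets separately normalised tables side by side and serves to choose a table only. The sensors and lists were chosen with earlier results of these data known. Alternatives changed the filter, scale, centring, trend, samples and replicate block.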

Additional observations from a re-analysis of the deposited data

How the results depend on the processing

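No sensor was called under any alternative, except endothelial Tlr7 in KO1 minus KO2 without KO2 C (members called 0 to 1 over libraries left out; difference -0.31, adjusted p = 0.0382, KO2 then being the single library with Tlr7 at 499). For single sensors, 807 alternatives were computed for WT minus PBS, knockout mean minus WT and the few other differences the text gives. That restriction was set after the values had been seen. Of these, 766 kept their direction and side of the threshold and 40 changed sign. Unlike the counts over sensors above, these include endothelial Tlr7 and microglial Tlr3 and Tlr9.

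The letters were not taken to pair the libraries in the main fit, since the labels do not say what a letter stands for. Same-letter deviations correlated at 0.0207 to 0.226 (median 0.12) between endothelial libraries and at 0.0125 to 0.353 (median 0.08) between microglia libraries. Between other letters the values were -0.226 to 0.112 (median -0.0475) and -0.262 to 0.0671 (median -0.042). Every same-letter pair was thus positive, and 9 of 10 and 10 of 11 libraries correlated best with their own letter. The main fit does not take account of what libraries of a letter share. Between microglial WT and KO1 all 3 same-letter values exceeded 0.1 (0.26, 0.163 and 0.353), and between no other groups with 3 pairs did they. With the replicate block, all microglial genes called rose from 0 to 22 in WT minus PBS, from 1 to 28 in exosome mean minus PBS and from 0 to 7 in the F test. In that fit microglial Zbp1 stood at 1.16 in WT minus PBS (adjusted p = 0.0917) and at 1.04 in exosome mean minus PBS (adjusted p = 0.0589), and Dhx58 at 0.69 in WT minus PBS (adjusted p = 0.308). The replicate block turned endothelial Tlr7 (-0.0116) and microglial Tlr9 (0.00347) and Mavs (0.0633) in WT minus PBS, and endothelial Cgas in the knockout comparison (0.0189). Without the C libraries, sign changes were Mavs in microglial WT minus PBS (0.0724) and, in the knockout comparison, endothelial Tlr3 (0.00721) and microglial Tlr7 (0.0373), Cgas (0.0233) and Ddx58 (0.0489).

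Leaving out 1 library gave these ranges with a sign change. In endothelial WT minus PBS, Sting1 ran from -0.0516 to 0.157, Tlr3 from -0.00781 to 0.276 and Cgas from -0.0682 to 0.179. In the endothelial knockout comparison, Tlr3 ran from -0.223 to 0.0603, Cgas from -0.154 to 0.0929, Mavs from -0.308 to 0.0115 and Ddx58 from -0.0446 to 0.0971. In microglial WT minus PBS, Ifih1 ran from -0.0126 to 0.2501, Tlr9 from -0.202 to 0.159, Tlr7 from -0.602 to 0.279, Mavs from -0.305 to 0.218 and Ddx58 from -0.175 to 0.458. In the microglial knockout comparison, Zbp1 ran from -0.505 to 0.175, Ifih1 from -0.185 to 0.0774, Dhx58 from -0.346 to 0.1796, Tlr3 from -0.478 to 0.0829, Tlr7 from -0.134 to 0.1975 and Ddx58 from -0.292 to 0.3405. The cause was not tested.

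Without a filter, endothelial genes called numbered 9 in WT minus PBS, 26 in exosome mean minus PBS, 6 in the knockout comparison, 3 in KO1 minus KO2 and 15 in the F test. Without WT B they numbered 36 in WT minus PBS and 62 in the knockout comparison, where a pseudocount of 1 gave 20, and without KO2 C 47 in KO1 minus KO2. A filter of 1 log2 unit above the lowest value left no endothelial sensor to test.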
